A study of Mus musculus with 16 samples.

Results

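The 6 genes described here are C1qa, C1qb and C1qc, which encode the A, B and C chains of complement C1q, C3ar1 and C5ar1, the receptors for the complement fragments C3a and C5a, and Cfp, which encodes properdin. They were taken by symbol from a raw count table of 55416 mouse gene IDs, and all 6 were found and passed the expression filter. The table covers 16 RNA sequencing libraries of mouse Hoxb8 macrophages, a line grown from bone marrow progenitors that the factor Hoxb8 holds in an immature, dividing state until they are matured. A group of 4 libraries came from macrophages alone, and groups of 4 libraries each came from macrophages given apoptotic Jurkat cells, which are human leukaemic T cells, for 45, 90 or 180 min. Every group is the same line, with no genetic change named in the labels. Nothing in the labels ties libraries of a group to different cultures, and p-values then measure only the spread between these libraries, which may be technical. The harvest time of macrophages alone is not in the labels either, and an effect of hours in culture cannot be told apart from one of the apoptotic cells.

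Complement is a cascade of plasma proteins that marks targets for uptake and calls in phagocytes. C1q is the recognition molecule of its classical pathway. It is built from A, B and C chains with collagen-like stalks and globular heads, binds dying cells directly and can bridge them to phagocytes, and macrophages are a main source of it. C3a and C5a are small fragments split from C3 and C5 that act on G protein-coupled receptors of myeloid cells. Properdin steadies the enzyme complex of the alternative pathway that splits C3.

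C1qb, C1qc and C1qa lie next to each other in that order on chromosome 4, on the same strand, between the coding genes Ephb2 and Epha8 in the GENCODE M21 annotation. In that annotation no other gene overlaps any of the 6. C3ar1 lies on chromosome 6, C5ar1 on chromosome 7 and Cfp on chromosome X. Upstream sequences of 5 of the 6 genes (C1qb, C1qc, C3ar1, C5ar1 and Cfp, not C1qa) were matched in RefSeq's promoter table for GRCm38.p6. Those of C1qb, C1qc and Cfp are shown because transcripts of these genes moved together in the results that follow. Each is the 250 bases before the transcription start on the gene's own (minus) strand, from chr4:136886201-136886450, chr4:136892915-136893164 and chrX:20931556-20931805 of that build, not of the build of the counts.
C1qb: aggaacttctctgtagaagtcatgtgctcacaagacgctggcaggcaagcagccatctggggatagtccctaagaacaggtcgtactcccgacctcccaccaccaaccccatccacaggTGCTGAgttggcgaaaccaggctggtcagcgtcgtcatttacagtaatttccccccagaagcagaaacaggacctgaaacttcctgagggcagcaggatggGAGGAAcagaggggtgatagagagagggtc
C1qc: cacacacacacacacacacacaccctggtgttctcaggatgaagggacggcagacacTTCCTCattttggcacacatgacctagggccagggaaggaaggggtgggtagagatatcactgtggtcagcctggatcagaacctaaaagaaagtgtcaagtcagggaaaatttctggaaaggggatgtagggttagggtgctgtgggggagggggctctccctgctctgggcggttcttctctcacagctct
Cfp: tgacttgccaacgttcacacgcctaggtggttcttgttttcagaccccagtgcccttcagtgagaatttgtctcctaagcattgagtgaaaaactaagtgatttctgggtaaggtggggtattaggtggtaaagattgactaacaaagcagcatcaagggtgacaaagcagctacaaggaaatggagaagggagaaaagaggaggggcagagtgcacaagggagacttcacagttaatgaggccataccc
Capitals mark matches, on either strand, to TGCTGA, the short core of the element bound by Maf factors, and to GAGGAA, the core of the box bound by PU.1. PU.1, the product of Spi1, is a known regulator of macrophage genes. The window of C1qb held 1 of each motif, TGCTGA beginning 131 bases and GAGGAA 30 bases before the start. That of C1qc held GAGGAA on the opposite strand, from 193 bases before the start, and that of Cfp held neither. TGCTGA also occurred 144 bases before the start of C3ar1 and 17 bases before that of C5ar1. Distances are counted from the start in the promoter table. Of the bases just after that start, 37 were found in a GENCODE M21 transcript for C1qb, against 50 for each of the other genes matched. The distances for C1qb therefore depend on the start used. Of 32851 windows of this length in the table, 16.1% held TGCTGA, 23.3% held GAGGAA and 3.7% held both, so a match is a description of the letters and not a shown site.

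Libraries held between 10.7 M and 41.7 M counts, and the group means ran from 15.7 M at 90 min to 31.7 M at 45 min. Markers listed for macrophages summed to between 9720 and 12400 unscaled CPM (a library's counts brought to a common total) in every library, led by Lyz2, Adgre1 and Fcgr1. Those of neutrophils, which also make properdin, summed to between 5.08 and 7.79, with Elane at 0 in all libraries. Those of T cells and Jurkat cells summed to between 9.49 and 15.9, mostly Cd28, with Cd2, Cd3e, Cd3g and Bcl11b at 0. Those of dendritic cells stayed at or under 0.348 and those of progenitors at or under 0.588, while those of B cells reached 2.85 and those of erythroid and mast cells 0.288. The sources used here do not say how reads of the human cells were treated.

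All 6 genes were strongly expressed in macrophages alone. Levels of different genes are compared here as scaled CPM per kb, that is, CPM of the TMM-scaled library divided by the length of the gene's exons. C3ar1 was the highest, at 627 ± 13.8 (SD, n = 4) CPM per kb, which placed it 37th of 14084 genes with a known length. C1qb followed at 525 ± 22.3 and the 45th place. C1qc at 234 ± 4.26 and C1qa at 233 ± 1.88 stood side by side at the 115th and 116th place, with a difference smaller than the SD of C1qc. Cfp stood at 176 ± 3.5 and the 162nd place, and C5ar1 at 118 ± 3.74 and the 264th. The order of the other 4 genes was the same at each time, while at 45 and 180 min the mean of C1qa lay above that of C1qc by less than either SD, and at 90 min by about 1 SD (226 ± 13.6 against 212 ± 14.5). The A, B and C chains are present in equal numbers in the C1q protein, but C1qb exceeded C1qa and C1qc per kb in every group. The distances depend on the exon lengths used, 1.04 kb for C1qa, 1.088 kb for C1qb and 1.931 kb for C1qc. Without that division the means in macrophages alone were 571 scaled CPM for C1qb, 452 for C1qc and 242 for C1qa. Any effect of length or GC content on these levels was not removed.

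**Figure D1:**
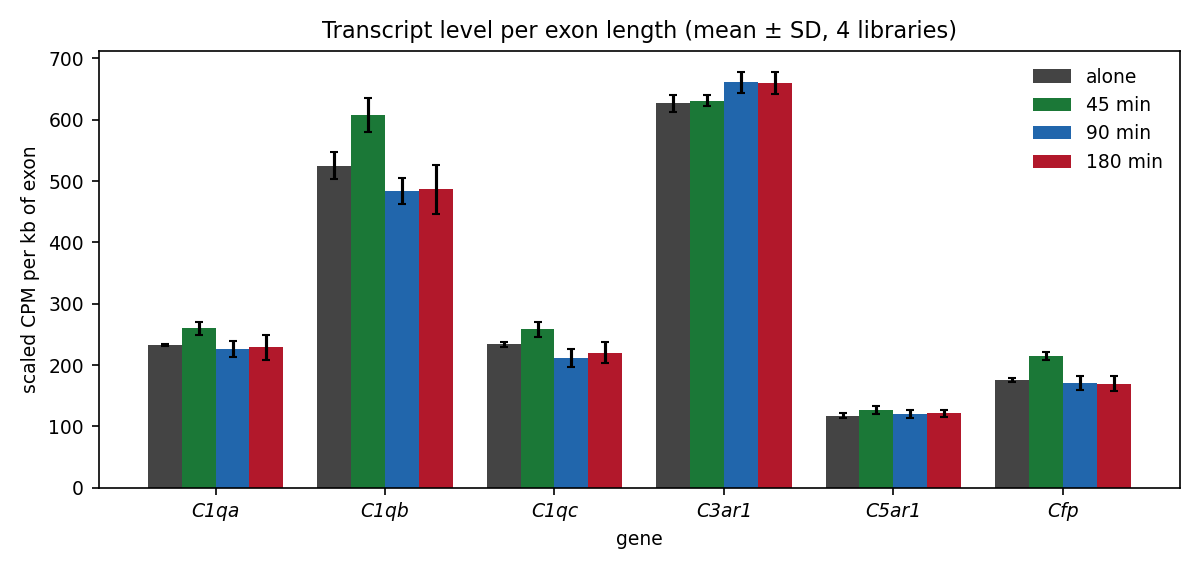
Mean transcript level in scaled CPM per kb of exon (vertical axis, bars with SD over 4 libraries) for each of the 6 genes (horizontal axis) in macrophages alone and after 45, 90 and 180 min with apoptotic cells. C3ar1 (627 in macrophages alone) and C1qb (525) stand above the others and C5ar1 (118) is lowest in each group.

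At 45 min the question is which of these transcripts had moved by the earliest time sampled. All C1q chains and properdin were higher at 45 min than in macrophages alone, by 10.5% to 21.9%, while C3ar1 and C5ar1 were not called. By edgeR's quasi-likelihood test with Benjamini-Hochberg adjustment over all genes, 4 of the 6 rose and none fell, where 10.8% of all 14168 genes tested were called, 4.69% higher and 6.11% lower. The 2 not called had unadjusted p-values of 0.796 (C3ar1) and 0.0234 (C5ar1). The median log2 fold change of the 6 was 0.15, against 0.0042 over all genes tested. When a trend over length and GC content was removed from each library, the calls of the C1q chains ended and that of Cfp stayed. The summed macrophage markers were also higher, at between 11400 and 12400 unscaled CPM at 45 min and between 10600 and 10800 in macrophages alone. The largest rise among them in CPM was that of Lyz2, from 5113 to 6006 over the pooled libraries. Relative to its own level Cd14 rose most, from 134.5 to 176.3. Mertk (87.8 to 80.2) and Itgam (117 to 115) were lower, and the other listed markers were higher. Their part in the rise of the C1q chains and Cfp was not tested. In such bulk libraries fewer cells of a type and less RNA per cell cannot be told apart.

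Cfp, the properdin gene (ENSMUSG00000001128), changed most. Its scaled CPM in the 4 libraries of macrophages alone was 313, 305, 304 and 298, and at 45 min it was 381, 357, 370.3 and 381. The groups did not overlap, which held for 16.9% of all genes in this comparison. Cfp rose by 0.29 (SE 0.046, adjusted p = 6.6e-06) on the log2 scale, and by 0.16 (SE 0.038, adjusted p = 0.00421) after removal of the trend. It was called in each alternative tried.

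C1qb (ENSMUSG00000036905), which encodes the B chain, stood at 604, 551, 575 and 555 scaled CPM in macrophages alone and at 692, 624, 649.8 and 678 at 45 min. Its lowest library at 45 min lay above the highest of macrophages alone. It rose by 0.21 (SE 0.045, adjusted p = 0.000717), which fell to 0.07 (SE 0.033, adjusted p = 0.264) with the trend removed.

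C1qa (ENSMUSG00000036887), the A chain gene, was at 239, 242, 243 and 244 scaled CPM in macrophages alone, the narrowest spread of the 6 genes in any group, with an SD of 0.809% of the mean. At 45 min it was at 283, 262, 260.1 and 276, again with no overlap. It rose by 0.16 (SE 0.049, adjusted p = 0.0221), against 0.01 (SE 0.039, adjusted p = 0.948) with the trend removed. C1qc (ENSMUSG00000036896), the C chain gene, went from 463, 444, 448 and 453 to 534, 496, 478 and 489.9 scaled CPM, with no overlap. It rose by 0.14 (SE 0.046, adjusted p = 0.033), against 0.01 (SE 0.038, adjusted p = 0.934) with the trend removed. Library 1 of 45 min was the highest of its group for C1qa, C1qb and C1qc. Without it C1qa (0.16, adjusted p = 0.0572) and C1qc (0.13, adjusted p = 0.105) were not called, and the call of C1qc also ended when library 2 of macrophages alone was left out (0.15, adjusted p = 0.0552) or with a stricter filter (0.13, adjusted p = 0.0505). Among the alternatives, adjusted p-values of C1qa spanned 0.00241 to 0.948 and those of C1qc 0.00427 to 0.934.

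The 4 genes that rose are short and rich in G and C. C1qa is shorter than 91.8% of the genes tested and its GC content of 59.5% exceeds that of 95.8% of them. The corresponding shares were 91.3% and 90.3% for C1qb, 79.7% and 90.8% for C1qc and 82.8% and 86.3% for Cfp. For C3ar1 they were 44.6% and 19.3%, and for C5ar1 69.9% and 52.1%. The trend fitted over all well expressed genes was higher at 45 min than in macrophages alone by 0.15 on the log2 scale at the length and GC content of C1qa, by 0.14 at those of C1qb and by 0.13 at those of C1qc and of Cfp. The difference in trend was 0.07 at those of C5ar1 and -0.02 at those of C3ar1. The origin of the trend was not tested.

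**Figure D2:**
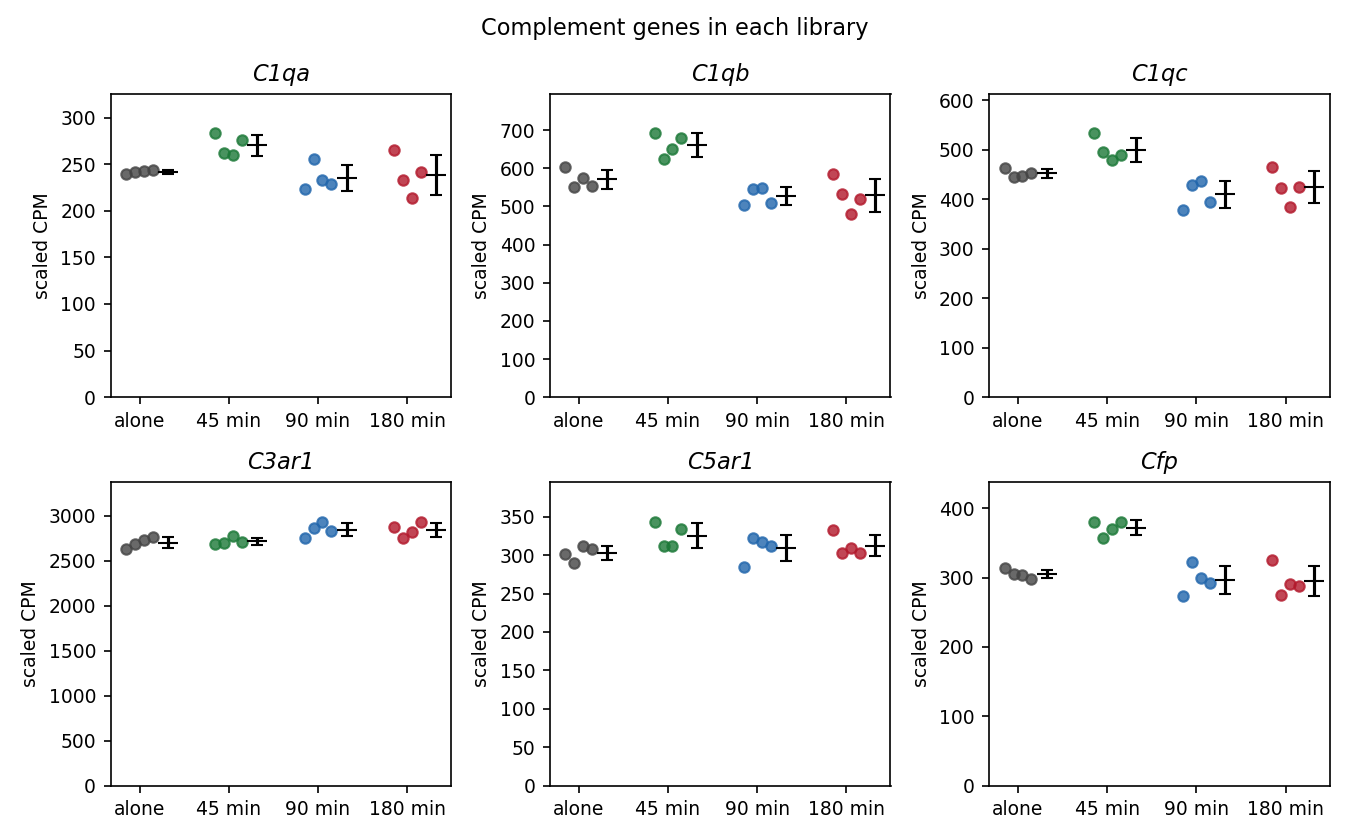
Scaled CPM (vertical axis, from 0) of each gene in each of the 16 libraries (points, in file order within a group), with the mean and SD of each group beside them (black). C1qa, C1qb, C1qc and Cfp at 45 min lie above all libraries of macrophages alone, while the groups overlap for C3ar1 and C5ar1.

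The receptors for C3a and C5a were not called at 45 min. C3ar1 (ENSMUSG00000040552) was at 2624, 2685, 2733 and 2759 scaled CPM in macrophages alone and at 2689, 2695, 2774 and 2706 at 45 min, and the groups overlapped. The difference was 0.0086 on the log2 scale, with a 95% interval from -0.06 to 0.07. C5ar1 (ENSMUSG00000049130) was at 302, 289, 311 and 308 in macrophages alone and at 344, 312, 311 and 334 at 45 min. Its difference of 0.10 (SE 0.045, adjusted p = 0.138) was not called, with a 95% interval from 0.01 to 0.19. Its call appeared when library 2 of 45 min (0.14, adjusted p = 0.0492) or library 1 of 180 min (0.12, adjusted p = 0.0465) was left out, and over all alternatives its adjusted p ran from 0.0465 to 0.697.

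Between 45 and 90 min C1qa, C1qb, C1qc and Cfp fell and the 2 receptors were not called, where 28.1% of all genes were called, 14.8% higher and 13.3% lower. The unadjusted p-values of the receptors were 0.0475 (C3ar1) and 0.108 (C5ar1). The groups did not overlap for the 4 genes that fell, as for 25.1% of all genes. C1qb was at 504, 545, 549 and 508 scaled CPM at 90 min, 20.4% lower than at 45 min (-0.33, SE 0.045, adjusted p = 6.58e-08). Cfp was at 273, 323, 299 and 293, 20.2% lower (-0.33, SE 0.047, adjusted p = 1.59e-07). These were the larger falls, and both genes returned to or below the range of macrophages alone in most libraries.

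C1qc was at 378, 428, 437 and 395 scaled CPM at 90 min, a fall of 18.0% from 45 min (-0.29, SE 0.047, adjusted p = 2.53e-06). C1qa was at 224, 256, 233 and 229, a fall of 12.9% (-0.20, SE 0.049, adjusted p = 0.00134). With the length and GC trend removed the falls of C1qb (-0.15, adjusted p = 0.00061), Cfp (-0.16, adjusted p = 0.00119) and C1qc (-0.12, adjusted p = 0.0164) were still called, and that of C1qa (-0.0064, adjusted p = 0.931) was not. In the other 24 alternatives the fall of C1qa was called.

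Against macrophages alone, only C1qc of the 6 was called at 90 min, where 21.1% of all genes were called, 11.1% higher and 9.97% lower. It fell by 0.14 (SE 0.047, adjusted p = 0.0222), and its scaled level decreased by 9.38%. All 4 libraries at 90 min lay under the lowest of macrophages alone, at 444. The call was lost without library 1 of 90 min (-0.12, adjusted p = 0.0809) or library 4 (-0.13, adjusted p = 0.0726), within a range of 0.00752 to 0.0809 over all alternatives. With the length and GC trend removed it was kept (-0.11, adjusted p = 0.0353). C1qb also lay with no overlap below macrophages alone, as 21.2% of all genes did in either direction, but its difference of -0.12 (SE 0.046) missed the threshold (adjusted p = 0.057). It was called in 10 of 25 alternatives, within a range of 0.0228 to 0.15. C1qa (-0.04, 95% interval -0.14 to 0.06), Cfp (-0.04, -0.13 to 0.05) and C5ar1 (0.03, -0.06 to 0.12) were not called.

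At 180 min the 6 genes stood close to their levels at 90 min. None was called between 90 and 180 min by edgeR, where 11.4% of all genes were (4.45% higher, 6.97% lower), and the smallest unadjusted p of the 6 was 0.284, that of C1qc. DESeq2 also called none of the 6. The share of called genes that were higher in this comparison was 39%, or 51.5% with libraries scaled by their totals alone. None was called against macrophages alone by edgeR either, where 31.1% of all genes were, although C1qb (-0.11, unadjusted p = 0.0176, adjusted p = 0.0553) and C3ar1 (0.07, unadjusted p = 0.027, adjusted p = 0.0775) had unadjusted p-values under 0.05. C3ar1 was called there by DESeq2 (0.08, adjusted p = 0.0182). No gene of the 6 had groups without overlap in either comparison, against 28.6% of all genes for 180 min with macrophages alone and 12.3% for 180 with 90 min. The libraries at 180 min were the most spread for the C1q chains. C1qb was at 584, 533, 481 and 518.5 scaled CPM, C1qc at 466, 423, 385 and 424, C1qa at 265, 233, 214 and 241 and Cfp at 325, 275, 291 and 288. Library 1 was the highest and, for the C1q chains, library 3 the lowest. Without library 1 of 180 min C1qb (-0.16, adjusted p = 0.00457) and C1qc (-0.13, adjusted p = 0.022) were called lower than in macrophages alone. Leaving out library 1 of 90 min (-0.12, adjusted p = 0.0427) or removing the trend (-0.09, adjusted p = 0.0295) also gave a call for C1qb, within a range of 0.00457 to 0.299.

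Between 45 and 180 min C1qa, C1qb, C1qc and Cfp fell and the 2 receptors were not called, where 36.4% of all genes were called, 18.3% higher and 18.0% lower. Cfp fell by 0.34 (SE 0.047, adjusted p = 2.83e-08), C1qb by 0.32 (SE 0.045, adjusted p = 3.92e-08), C1qc by 0.23 (SE 0.047, adjusted p = 4.45e-05) and C1qa by 0.18 (SE 0.049, adjusted p = 0.00216). With the trend removed these were -0.19, -0.16, -0.10 and -0.02, and the last was not called (adjusted p = 0.693). The groups of C1qb, C1qc and Cfp did not overlap, as for 32.3% of all genes, and those of C1qa did. In the test for a change at any of the 3 times, which called 44.6% of all genes, Cfp (adjusted p = 4.05e-09), C1qb (7.04e-09), C1qc (2.77e-06) and C1qa (0.00137) were called and C3ar1 (0.0702) and C5ar1 (0.215) were not. The comparisons share libraries, those with macrophages alone their control and those from 45 min their 45 min group, so their calls are not independent.

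**Figure D3:**
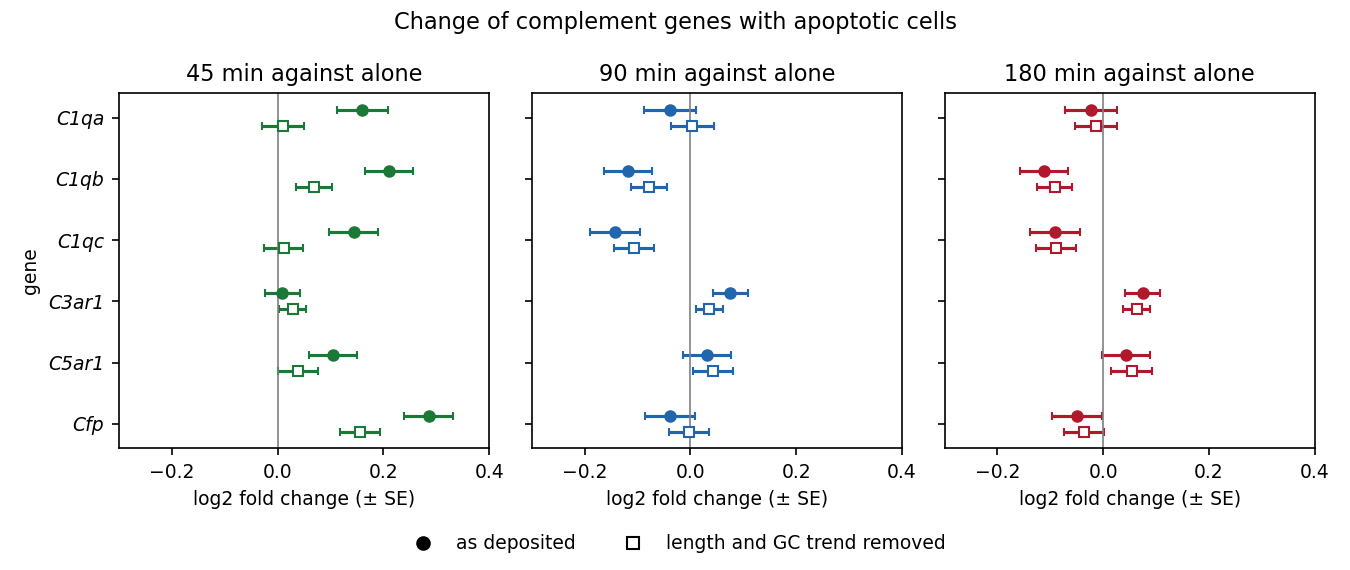
Log2 fold change against macrophages alone (horizontal axis, with its SE) of each gene (vertical axis) at 45, 90 and 180 min, from the counts as deposited (filled circles) and after removal of the trend over length and GC content (open squares). At 45 min Cfp stays above 0 in both, at 0.29 and 0.16, while C1qa and C1qc move from 0.16 and 0.14 to 0.01.

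C3ar1 varied least of the 6 over all libraries. Its highest and lowest of 16 libraries were 2933 and 2624 scaled CPM, and its SD within a group ranged from 1.44% to 2.7% of the mean. At 90 min it was at 2748.5, 2865, 2933 and 2833 and at 180 min at 2876, 2753, 2816 and 2931. The differences from macrophages alone were 0.08 (95% interval 0.0093 to 0.14) at 90 min and 0.07 (0.0088 to 0.14) at 180 min. Neither was called, but the call depended on the setting. In a fit of protein-coding genes alone it was called at 90 min (0.09, adjusted p = 0.0323) and at 180 min (0.10, adjusted p = 0.0116). It was called at 180 min in 9 of 25 alternatives and at 90 min in 2, and the highest value reached was 0.10. C5ar1 was at 285, 323, 317 and 312 at 90 min and at 332, 303, 309.8 and 303 at 180 min, and its groups overlapped in every comparison.

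Ratios within a library do not depend on how libraries are scaled, so 5 of them were compared at each time with macrophages alone by an exact two-sided permutation test of 4 libraries against 4, which cannot go below p = 0.0286. None of the 15 comparisons passed Benjamini-Hochberg adjustment over the 15, the smallest adjusted p being 0.214. The log2 ratio of Cfp to the mean of the C1q chains was -0.38 ± 0.02 (SD, n = 4) in macrophages alone and -0.26 ± 0.037 at 45 min, and all 4 libraries at 45 min lay above all 4 of macrophages alone (exact permutation p = 0.0286). The ratio of C1qa to C1qc was higher by 0.07 at 180 min with the same separation (exact permutation p = 0.0286). The ratio of C1qb to C1qc differed from macrophages alone by 0.07 at 45 min (exact permutation p = 0.143), and that of C3ar1 to C5ar1 by -0.09 (exact permutation p = 0.114). The ratios still hold the length and GC trend, whose difference at 45 min was -0.02 for C3ar1 and 0.07 for C5ar1. With that trend removed the changes of these genes at 45 min were 0.03 and 0.04. Mean differences in the ratios among C1q chains were at most 0.10 in size.

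Across the 16 libraries the log2 CPM of pairs of C1q chains had Pearson correlations of 0.895 to 0.947, and after subtraction of each group's mean 0.799 to 0.863. Cfp with the C1q chains gave 0.857 to 0.918, and 0.665 to 0.750 within groups. C5ar1 with them gave 0.608 to 0.722, and 0.668 to 0.698 within groups. C3ar1 with them gave -0.496 to -0.24 across all libraries but 0.124 to 0.323 within groups, so the sign differed. These are descriptions over 4 groups of 4 libraries that share library and scaling, with no p. The length and GC trend was not removed, here or for the likeness that follows. Between macrophages alone and 45 min it rose by 0.15 for C1qa, 0.14 for C1qb and 0.13 for C1qc and Cfp. Its difference was 0.07 for C5ar1 and -0.02 for C3ar1. The part of the trend in these values was not tested. Genes with the pattern most like each member were sought among 9857 named genes of sufficient level. For C1qb they were Tyrobp, which encodes the adaptor DAP12 of myeloid receptors, the ribosomal protein genes Rpl8, Rplp1 and Rplp0, and Actb (r from 0.965 to 0.982). For C1qa they were Atp6v1f, a subunit of the proton pump, Tyrobp, Rps7, Ppp1ca and C1qc (0.8995 to 0.951), and for C1qc they were Ftl1, Rplp1, C1qb, Rps26 and Gnai2 (0.9397 to 0.9545). Those closest to Cfp included the actin-binding protein gene Pfn1, Rps27, Cd37 and the scavenger receptor gene Marco (0.9355 to 0.957). C5ar1 was closest to Myl12a, Elovl1, Marco, Rpl11 and Jun (0.793 to 0.833), and C3ar1 to Eif4e, which encodes the cap-binding protein, Psmd1, Sept7, Zfp709 and Hnrnpd (0.874 to 0.927). Ribosomal protein genes can share reads with their pseudogenes.

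The rest of the complement system was set beside these genes with 6 lists of 55 other genes, all of which were in the table. Of these, 26 were tested and 29 were too low, 18 of them with no count in any library and none above 0.689 CPM in any. Among those with no count were Vsig4, a receptor for cleaved C3 on resident macrophages, Cr2, Serping1, the inhibitor of the C1 proteases, Cfd, Cfi and the lectins Mbl1 and Mbl2. C1s1 had 14 counts in all libraries together and C1ra, its partner protease, 3.86 ± 0.598 scaled CPM (SD, n = 4) in macrophages alone.

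At 45 min 1 of the 26 rose and 2 fell, with a median of -0.0048 against 0.0042 over all genes. At 90 min none rose and 3 fell (median -0.0045), and at 180 min 1 rose and 5 fell (median -0.03). These shares compare with the 10.8%, 21.1% and 31.1% of all genes called in the same comparisons. C3, the protein at the centre of the cascade and the source of C3a, was among those that fell. Its mean was 396 ± 10.2 scaled CPM (SD, n = 4) in macrophages alone, 376 ± 10.1 at 45 min, 322 ± 10.1 at 90 min and 272 ± 8.98 at 180 min. It fell by 0.30 (SE 0.042, adjusted p = 9.01e-08) at 90 min and by 0.54 (SE 0.042, adjusted p = 1.39e-16) at 180 min, and libraries at 180 min (266 to 285) lay under those of macrophages alone (383 to 405). It was not called at 45 min (-0.08, adjusted p = 0.266), and it fell further between 90 and 180 min (-0.24, adjusted p = 1.54e-05). All its calls held in every alternative tried.

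Receptors and binding partners moved in both directions. Calr encodes calreticulin, a chaperone that binds the collagen-like part of C1q at the cell surface. It fell by 0.19 at 90 min (adjusted p = 0.000642) and by 0.23 at 180 min (adjusted p = 1.55e-05), from 338 ± 10.3 to 297 ± 4.02 and 289 ± 9.93 scaled CPM. Its partner Lrp1, a large endocytic receptor, fell by 0.33 at 45 min (adjusted p = 1.68e-06) and rose by 0.34 at 180 min (adjusted p = 1.43e-07), from 1302 ± 76.2 to 1034 ± 87.2 and 1647 ± 164 scaled CPM. The fall of Lrp1 at 45 min was -0.18 with the length and GC trend removed and was still called (adjusted p = 7.16e-05). Itgb2, the shared beta subunit of the integrins that bind cleaved C3, rose by 0.15 at 45 min (adjusted p = 0.0119) and was not called once the trend was removed (0.06, adjusted p = 0.288). The alpha subunit gene Itgam was at -0.02, 0.01 and -0.01 at the 3 times, and C5ar2, the other receptor for C5a, at -0.11, -0.0033 and -0.09, none of them called. Colec12, a scavenger receptor of the collectin family, fell by 0.11 at 90 min (adjusted p = 0.031) and by 0.17 at 180 min (adjusted p = 0.000618), and 7 of 25 alternatives lost the first of these calls.

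The other 2 genes called against macrophages alone were C4b and Cd46. C4b fell by 0.36 at 180 min (adjusted p = 0.0161), and because it is nearly identical to C4a the counts of both are uncertain. C4a, at 0.84 ± 0.308 scaled CPM in macrophages alone, went the other way, by 1.01 at 180 min (adjusted p = 0.0712, not called) and by 1.20 from 45 to 180 min (adjusted p = 0.0233), a call that 5 of 23 alternatives lost. Cd46, at 2.39 ± 0.452 scaled CPM in macrophages alone, fell by 1.06 at 45 min (adjusted p = 0.0357) and by 0.95 at 180 min (adjusted p = 0.038), calls that 6 of 25 alternatives each lost. The adjusted p of Cd46 reached 0.151 at 45 min and 0.135 at 180 min without library 2 of macrophages alone. C4b lost its call when library 1 of macrophages alone (-0.28, adjusted p = 0.101) or library 1 of 180 min (-0.30, adjusted p = 0.0679) was left out.

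**Figure D4:**
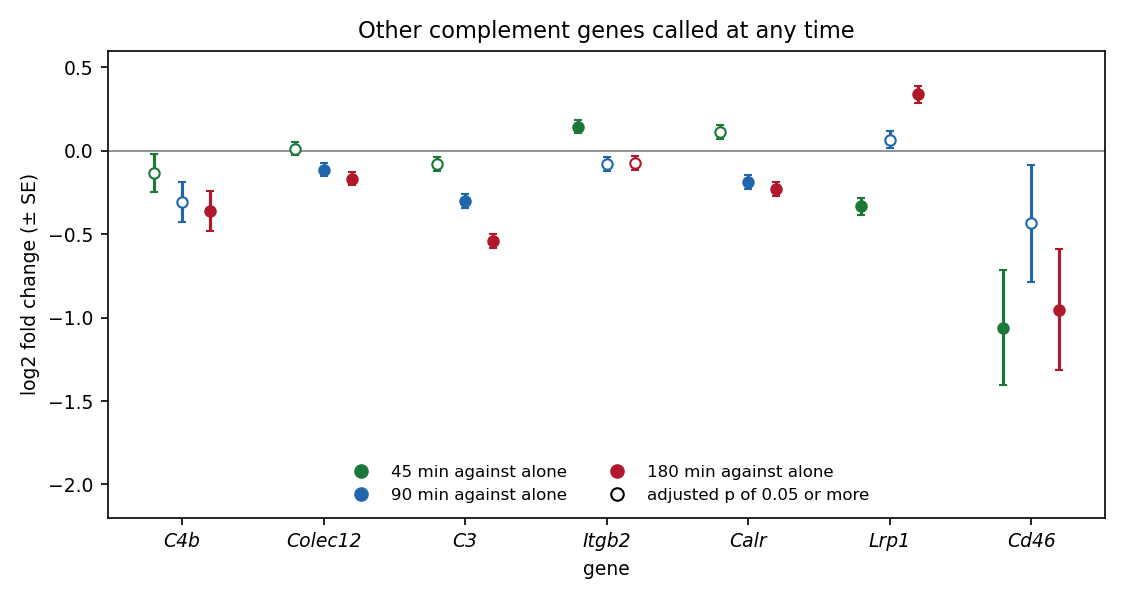
Log2 fold change against macrophages alone (vertical axis, with its SE) of the 7 other complement genes called at any of the 3 times (horizontal axis), at 45, 90 and 180 min. Filled points passed the test; C3 goes from -0.08 to -0.30 and -0.54, and Lrp1 from -0.33 at 45 min to 0.34 at 180 min.

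A list of 8 transcription factors known to act on C1q genes in macrophages was also followed. Spi1, which encodes PU.1, was at 267 ± 9.07 scaled CPM in macrophages alone (SD, n = 4). It rose by 0.17 at 45 min (adjusted p = 0.00551) and fell by 0.30 from 45 to 90 min (adjusted p = 6.26e-07). Once the length and GC trend was removed the rise was not called (0.05, adjusted p = 0.519), and the fall was smaller and still called (-0.15, adjusted p = 0.00194). Against macrophages alone Spi1 was lower at 90 min (-0.12, adjusted p = 0.0456), a call that 11 of 25 alternatives lost. Maf fell by 0.48 at 180 min (adjusted p = 3.34e-14) and Pparg, a nuclear receptor for lipids, by 0.38 (adjusted p = 4.34e-05). Ppard, its relative, rose by 1.28 at 180 min (adjusted p = 4.29e-18), from 16.8 ± 2.3 to 40.9 scaled CPM, and Nr1h3, the oxysterol receptor LXR alpha, by 0.49 (adjusted p = 4.61e-06). Irf8 and Rxra rose at 180 min by 0.26 and 0.29 (adjusted p = 3.73e-05 and 0.00296). Any link between these 8 factors and the levels of the C1q chains was not tested.

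The 10 receptors of other chemoattractants on a further list give a frame for C3ar1 and C5ar1. Of the 9 tested, 1 rose and 1 fell at 45 min, 2 rose and 1 fell at 90 min and 3 rose and 3 fell at 180 min, where 10.8%, 21.1% and 31.1% of all genes were called. Of 25 alternatives, 15 lost the call of Ccr2 at 90 min, and at 180 min 10 lost that of Cx3cr1 and 9 that of Ptafr. Cxcr4 rose by 0.81 (adjusted p = 2.82e-14) and Ccr1 by 0.47 (adjusted p = 1.92e-11) at 180 min, while the formyl peptide receptor genes Fpr1 and Fpr2 fell by 0.30 and 0.31 (adjusted p = 4.07e-07 and 2.95e-05). In the same comparison C3ar1 and C5ar1 were at 0.07 and 0.04. Of 20 genes of the wider C1q and TNF family, 4 were tested. Only Emilin1, an extracellular matrix protein gene, was called against macrophages alone. It fell by 0.23 at 90 min (adjusted p = 0.00889) and by 0.22 at 180 min (adjusted p = 0.00973). In these comparisons 21.1% and 31.1% of all genes were called. The second call was lost without library 4 of 180 min (-0.17, adjusted p = 0.0804). Emilin2 rose by 0.13 from 90 to 180 min (adjusted p = 0.0424), a call that 7 of 25 alternatives lost.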

How the data were processed

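RNA was depleted of ribosomal RNA and made into directional libraries, per the labels' protocols. The authors deposited raw counts for the 16 libraries in 1 table. STAR 2.7.9a, SAMtools, HTSeq and build mm39 are named in the submitters' processing notes, while settings, strand use, annotation release and the treatment of human reads were not given in the sources used here. The 4 columns of a group share 1 name, so libraries are numbered in file order. Exon lengths came from GENCODE M21, which is for an earlier build. Symbols (for 52135 IDs) came from a separate list of gene names, or from M21 for genes that list lacked. Replicates of a group differed by more than sampling noise (chi-square per degree of freedom 3.98 to 10.2), and each counted as 1. That excess may be technical and does not show that they came from separate cultures.

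Genes were filtered with edgeR's expression filter (minimum count 10, minimum total 15), leaving 14168, with TMM (trimmed mean of M values) scaling. edgeR 4.0.16 (R 4.3.3) fitted all 16 libraries with group as the only term, and a gene was called at a Benjamini-Hochberg adjusted p under 0.05 over all genes tested. The fit was tested on simulated data. Ratios used log2 of scaled CPM with a pseudocount of 0.5, and likeness of pattern log2 CPM with a prior count of 2, over named genes averaging 1 or more on that scale. Named genes were the 6 members, members of the fixed lists and the 5 most alike genes of each member, some of which are not reported here. The members and lists were chosen with earlier results of these data known. Alternatives were other scalings, other filters, DESeq2 1.42.0, pairs of groups, coding genes, thinned libraries, a removed length and GC trend (a local regression per library over M21 exon length and transcript GC content) and each library left out.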

Additional observations from a re-analysis of the deposited data

Results flagged for a closer look

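No library stood apart from the other 3 of its group for any of the 6 genes by Dixon's test, in 24 sets of 4 values. The change from macrophages alone differed between times for C1qa, C1qb, C1qc and Cfp. The control cancels in such a difference, so these are the comparisons of 45 min with 90 and 180 min already given. They are not a further test. From 45 to 90 min these differences were -0.20 for C1qa, -0.33 for C1qb, -0.29 for C1qc and -0.33 for Cfp on the log2 scale. From 45 to 180 min they were -0.18 for C1qa, -0.32 for C1qb, -0.23 for C1qc and -0.34 for Cfp. Both values of C1qa were lost as calls with the length and GC trend removed (-0.0064 and -0.023).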

How the results depend on the processing

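Of 36 comparisons of a member, 13 were called, and 7 of these kept their call and direction in all 25 alternatives, namely the rise of Cfp at 45 min and the falls of C1qb, C1qc and Cfp from 45 to 90 and to 180 min. No called value changed sign. With the length and GC trend removed the calls at 45 min of C1qa (0.010), C1qb (0.069) and C1qc (0.011) ended, as did those of C1qa from 45 to 90 min (-0.0064) and to 180 min (-0.023), C1qb (-0.092) and C3ar1 (0.064) at 180 min were called, genes called at 45 min numbered 892 in place of 1529, and 5 other complement genes were called at 90 min. There the signs turned, uncalled, for C1qa at 90 min (0.0036), for C5ar1 from 45 to 90 min (0.0043) and to 180 min (0.015) and from 90 to 180 min for C1qa (-0.017), C1qb (-0.013) and C3ar1 (0.028). The stricter filter ended the call of C1qc at 45 min (0.13), with C3ar1 there at -0.0045, and from 90 to 180 min it gave C3ar1 0.013 and Cfp 0.0026. C1qb at 90 min was called with RLE size factors (-0.12), library totals (-0.12), no filter (-0.13) and the stricter filter (-0.12). C3ar1 at 180 min was called with library totals (0.10), the stricter filter (0.088), coding genes (0.098), thinning (0.088) and DESeq2 (0.077). From 45 to 180 min C3ar1 was called with the same 5 (0.10, 0.092, 0.092, 0.086 and 0.065), at 90 min with coding genes (0.090) and DESeq2 (0.071), and from 45 to 90 min with coding genes (0.084). From 90 to 180 min C3ar1 turned positive, uncalled, with RLE (0.0060), library totals (0.030), no filter (0.0085), coding genes (0.0084), thinning (0.0072), the 2 groups alone (0.0070) and DESeq2 (0.0057). With library totals C3ar1 at 45 min was -0.00074, C1qa at 180 min 0.0030 and Cfp from 90 to 180 min 0.020. C1qa at 180 min was 0.00050 with coding genes and 0.0095 with thinning, which also gave C5ar1 -0.0039 from 90 to 180 min. Leaving out 1 library gave, at 45 min, 0.16 to 0.19 for C1qa, 0.13 to 0.18 for C1qc, -3.3e-05 to 0.033 for C3ar1 and 0.096 to 0.14 for C5ar1. At 90 min it gave -0.14 to -0.10 for C1qb, -0.18 to -0.12 for C1qc and 2 to 5 other complement genes called. At 180 min it gave -0.071 to 0.024 for C1qa, -0.16 to -0.071 for C1qb, -0.13 to -0.050 for C1qc and 0.058 to 0.090 for C3ar1. From 90 to 180 min it gave -0.031 to 0.077 for C1qa, -0.038 to 0.061 for C1qb, -0.0084 to 0.024 for C3ar1, -0.015 to 0.042 for C5ar1 and -0.053 to 0.040 for Cfp. For ratios it gave -0.0026 to 0.028 for C1qa to C1qc at 45 min and -0.017 to 0.055 for Cfp to the C1q mean at 180 min. The causes were not tested. Members had at least 2537 counts in every library, and for C1qa in macrophages alone the SD between libraries (0.809% of the mean) is under what counting error alone gives. No paired analysis was possible because the columns carry no replicate numbers.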
